A study of Mus musculus with 2 samples.

Results

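The killer lectin-like receptors Klrg1, Klrd1, Klrk1, Klrc1, Klrc2 and Klre1 were read in tumour-infiltrating T cells, 6 genes of the 32285 measured. They were chosen by name and were found by gene symbol in the deposited gene table, each with a single identifier. The cells came from BALB/c mice aged 4 to 6 weeks that carried EMT6 tumours, a transplantable mouse mammary carcinoma, under the skin. Tested mice received mSTAR1302 into the peritoneum weekly for 2 cycles, and the other mice received vehicle. mSTAR1302 is known as a fusion of interleukin-2 with an antibody that binds receptor beta chains built from the segments Trbv13-2 and Trbv13-3. CD4+ and CD8+ cells were taken from digested tumours with magnetic beads and read by droplet single-cell RNA sequencing of transcript 3′ ends. Each group is 1 library, and the sources used here give no number of mice behind it. Differences between the groups were therefore not tested, and the 95% intervals reflect only the error of counting.

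Kept barcodes had at least 1000 unique molecular identifiers (UMIs, which stand for single captured molecules), at least 500 genes and at most 10% mitochondrial UMIs. That left 9155 cells (median 6260 UMIs) for mSTAR1302 and 7615 cells (median 8448 UMIs) for vehicle. A T cell held at least 2 UMIs of Cd3d, Cd3e and Cd3g together. The CD8 gate (a Cd8a or Cd8b1 UMI and no Cd4 UMI) held 6290 mSTAR1302 and 2460 vehicle cells. The gate of CD4 cells without a Foxp3 UMI held 791 mSTAR1302 and 622 vehicle cells, and that of CD4 cells with a Foxp3 UMI, which marks regulatory T cells, held 146 mSTAR1302 and 1365 vehicle cells. Trac was found in 90.5% to 96.0% of the cells of every gate and library, and the NK cell gene Ncr1 in 0% to 0.643%. The CD8 gate was not pure in lineage transcripts, because 3.07% of its mSTAR1302 cells and 16.3% of its vehicle cells held a Foxp3 UMI. Of the kept barcodes, 17 occurred in both libraries.

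Killer lectin-like receptors are C-type lectin-like membrane proteins that were first studied on natural killer cells and that activated T cells also carry. Klrd1 encodes CD94, which pairs with NKG2A, the product of Klrc1, into an inhibitory receptor or with NKG2C, the product of Klrc2, into an activating receptor, both for the non-classical MHC molecule Qa-1 (H2-T23). Klrk1 encodes NKG2D, an activating receptor for stress-induced ligands that signals through the adaptor DAP10 (Hcst) and, in mice, also DAP12 (Tyrobp). Klre1 encodes a receptor chain that pairs with the products of Klri1 or Klri2 in rodents. Klrg1 encodes an inhibitory receptor for cadherins, known as a marker of short-lived effector CD8 cells and of a mature subset of tissue regulatory T cells.

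All 6 genes lie on chromosome 6 of GRCm38 (mm10). Klre1 (129577905 to 129585827, plus strand), Klrd1 (129591782 to 129598775, plus), Klrk1 (129610323 to 129623864, minus), Klrc2 (129647496 to 129660689, minus) and Klrc1 (129666015 to 129678973, minus) form a block of 101.1 kb that also holds Klrc3. Klrg1 (122270596 to 122282882, minus) lies 7.30 Mb before that block. Klrc1, Klrc2 and Klrc3 are near-identical in places. Of the 90-base windows in the last 600 bases of their coding transcripts, 16.0% of those of Klrc1 also occur in Klrc2. Of those of Klrc2, 5.82% occur in Klrc1 and 8.08% in Klrc3. Reads from such windows cannot be assigned to 1 copy, and their effect on the counts of the Klrc genes was not tested. The mouse strain was BALB/c and the reference genome is of another strain, and the effect of that difference on the counts was not tested.

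The promoters of neighbouring receptor genes are shown because the genes of the block differed in how their transcripts stood between the libraries, from Klre1, at least 2-fold lower in mSTAR1302 CD8 cells, to Klrc1, which was level there. The RefSeq promoter table (GRCm38.p6) covered 4 of the 6 genes. Each sequence below runs 5′ to 3′ on the gene's own strand, from 250 bases before to 50 bases after the annotated start. Capitals mark the RUNX core motif TGTGGT on either strand (ACCACA on the other), RUNX factors being known regulators of CD8 T cell genes.
Klre1, chr6:129577963-129578262, plus strand: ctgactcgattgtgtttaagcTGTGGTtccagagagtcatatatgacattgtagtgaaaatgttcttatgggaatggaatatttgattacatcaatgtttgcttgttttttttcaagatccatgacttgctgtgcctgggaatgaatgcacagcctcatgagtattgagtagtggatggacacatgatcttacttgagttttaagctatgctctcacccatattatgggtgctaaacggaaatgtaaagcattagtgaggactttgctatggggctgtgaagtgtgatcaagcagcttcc
Klrk1, chr6:129623815-129624114, minus strand: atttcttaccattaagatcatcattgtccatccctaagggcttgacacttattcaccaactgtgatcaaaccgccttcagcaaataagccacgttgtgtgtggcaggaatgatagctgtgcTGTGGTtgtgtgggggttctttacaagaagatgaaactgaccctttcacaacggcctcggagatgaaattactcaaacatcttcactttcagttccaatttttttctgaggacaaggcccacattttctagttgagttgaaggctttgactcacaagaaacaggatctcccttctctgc
Klrc1, chr6:129678924-129679223, minus strand: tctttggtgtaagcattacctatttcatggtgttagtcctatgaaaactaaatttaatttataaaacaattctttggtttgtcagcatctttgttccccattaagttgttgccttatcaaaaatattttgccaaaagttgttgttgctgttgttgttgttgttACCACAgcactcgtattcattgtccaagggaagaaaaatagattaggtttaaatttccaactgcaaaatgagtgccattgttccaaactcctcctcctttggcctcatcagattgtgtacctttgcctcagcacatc
Klrc2, chr6:129660547-129660846, minus strand: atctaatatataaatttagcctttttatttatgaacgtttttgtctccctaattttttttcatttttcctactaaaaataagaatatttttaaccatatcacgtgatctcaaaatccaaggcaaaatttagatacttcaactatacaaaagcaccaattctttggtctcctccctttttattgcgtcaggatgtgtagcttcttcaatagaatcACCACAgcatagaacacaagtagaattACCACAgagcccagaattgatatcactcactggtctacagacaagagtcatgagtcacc
The RUNX core occurred at 2 places in the Klrc2 window and at 1 place in each of the other windows, and 16.8% of the 32851 promoters of this length in the table hold it. The T-box core GGTGTGA, searched on both strands, occurred in none of the printed windows and in 3.98% of all promoters. A further start listed for Klre1 had a window with no RUNX core. The second promoter listed for Klrc2 differed from that of Klrc3 at 5 of 300 bases, counting insertions and deletions, and from that of Klrc1 at 156. For Klrc1 the whole windows were compared at their annotated starts, with no search over shifts of the window. The count of 156 is therefore not a divergence of aligned promoters. A match is a description of letters and shows no binding.

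In CD8 cells Klrg1 was 6.88-fold lower and Klre1 3.03-fold lower with mSTAR1302, Klrd1 was 1.56-fold lower, and Klrk1, Klrc1 and Klrc2 stood within 1.17-fold of vehicle. Levels are given as CPM, the UMIs of a gene summed over a gate per 1000000 UMIs of that gate, and a ratio is mSTAR1302 over vehicle. Because genes are captured with different efficiency, levels are compared between libraries and gates and not between genes. Of the 6 members, 2 were at least 2-fold lower in CD8 cells (Klrg1 and Klre1) and 0 at least 2-fold higher. In the background of 5473 genes that reached 20 CPM for mSTAR1302 or vehicle, 4.73% were at least 2-fold lower and 1.04% at least 2-fold higher. The median log2 ratio was -0.43 over the 6 members, all of which passed 20 CPM, and -0.14 over the background.

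Klrc1 stood at 269.9 CPM (265.3 to 274.5) in mSTAR1302 CD8 cells and 268.6 CPM (262.7 to 274.6) in vehicle CD8 cells, a ratio of 1.00 (0.977 to 1.03). Its shared partner Klrd1 stood at 567 CPM (560.1 to 573.4) in mSTAR1302 cells and 885 CPM (874 to 896) in vehicle cells, a ratio of 0.641 (0.630 to 0.652). Klrc2 stood at 167 CPM (164 to 171) in mSTAR1302 cells and 195 CPM (190.0 to 200.2) in vehicle cells, a ratio of 0.857 (0.828 to 0.886). The summed transcripts of these chains therefore did not keep 1 ratio to each other between the libraries, and the proteins were not measured. There were 1.30 Klrd1 UMIs per UMI of Klrc1 and Klrc2 together in mSTAR1302 CD8 cells, against 1.91 in vehicle CD8 cells. There were 1.62 Klrc1 UMIs, of the inhibitory chain, per UMI of the activating chain Klrc2 in mSTAR1302 CD8 cells (1.57 to 1.66), against 1.38 in vehicle CD8 cells (1.33 to 1.43), with the limit that these paralogs share stretches of sequence.

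Klrk1, the activating receptor NKG2D, stood at 357 CPM (352 to 363) in mSTAR1302 CD8 cells and 398 CPM (390.5 to 405.0) in vehicle CD8 cells, a ratio of 0.898 (0.877 to 0.920). Klre1 stood at 29.3 CPM (27.8 to 30.8) in mSTAR1302 CD8 cells and 88.8 CPM (85.4 to 92.3) in vehicle CD8 cells, 3.03-fold lower with a ratio of 0.330 (0.309 to 0.352). Klrg1 stood at 3.69 CPM (3.17 to 4.27) in mSTAR1302 CD8 cells and 25.4 CPM (23.6 to 27.3) in vehicle CD8 cells, 6.88-fold lower with a ratio of 0.145 (0.123 to 0.171). Klre1 and Klrg1 were thus lowest in ratio, and 123 and 25 of the 5473 genes had a lower ratio than they did.

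**Figure D1:**
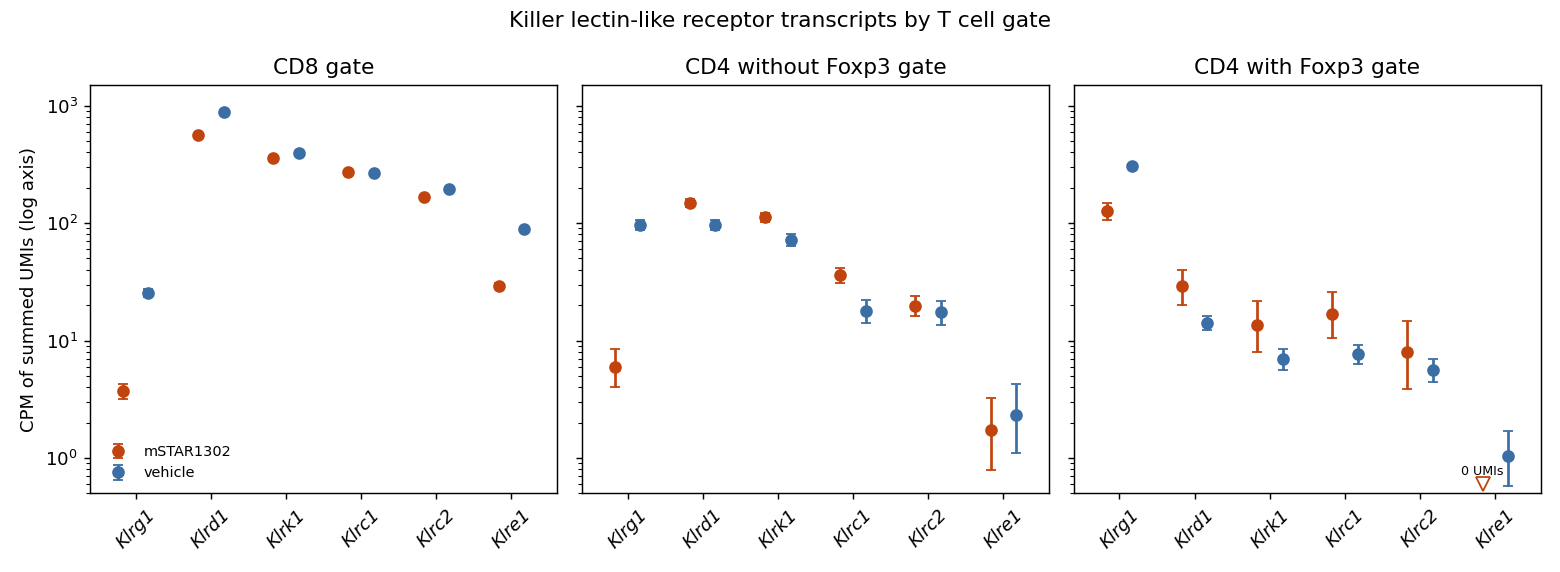
CPM of the 6 receptor genes (log axis) in the 3 T cell gates, with mSTAR1302 points left of vehicle points and bars for exact 95% Poisson intervals. Klrc1 was level in CD8 cells at 269.9 and 268.6 CPM, Klrg1 was lower with mSTAR1302 in every gate, and Klre1 had 0 UMIs in mSTAR1302 CD4 cells with Foxp3.

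The vehicle cells were the deeper ones, with a median of 6597.5 UMIs in mSTAR1302 and 9865.5 in vehicle CD8 cells, so shares of cells with a UMI were also read after thinning each cell to 3000 UMIs. This left out 680 mSTAR1302 and 120 vehicle CD8 cells. A Klrd1 UMI was found in 69.5% of thinned mSTAR1302 CD8 cells (exact Clopper-Pearson interval 68.3 to 70.7%) and in 75.5% of thinned vehicle CD8 cells (73.7 to 77.2%), against 82.5% and 84.5% without thinning. Klrk1 was found in 58.9% of mSTAR1302 and 61.5% of vehicle cells (76.5% and 81.0% unthinned), and Klrc1 in 50.3% and 50.9% (68.2% and 74.5% unthinned). Klrd1 and Klrk1 were thus found in most CD8 cells of both libraries at this depth, and the intervals of Klrc1 held 50%, from 49.0 to 51.6% for mSTAR1302 and from 48.9 to 53.0% for vehicle.

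Klrc2 was found in 36.0% of thinned mSTAR1302 CD8 cells (34.7 to 37.2%) and 41.8% of thinned vehicle CD8 cells (39.8 to 43.8%), against 56.6% and 70.3% unthinned. Klre1 was found in 6.31% of mSTAR1302 cells (5.69 to 6.98%) and 20.4% of vehicle cells (18.8 to 22.1%), a difference of -14.1 percentage points (-15.9 to -12.4), against 11.96% and 39.1% unthinned. Klrg1 was found in 0.820% of mSTAR1302 cells (0.601 to 1.09%) and 5.64% of vehicle cells (4.74 to 6.65%), against 1.59% and 11.3% unthinned. Klre1 and Klrg1 were lower in the share of cells as well as in the summed level.

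Free RNA is part of these readings, since droplets with more than 100 and up to 300 UMIs, too few for a cell, also held the receptors. These low-UMI droplets gave 13.4 CPM of Klrg1 in the mSTAR1302 library and 141.0 CPM in the vehicle library, so CD8 cells of both libraries lay below the free RNA of their own library. The share of such droplets with a Klrg1 UMI was 0.290% for mSTAR1302 and 2.85% for vehicle, at median depths of 211 and 216 UMIs. In macrophage-gated cells (no Cd3 UMI and at least 3 UMIs of C1qa, C1qb, C1qc and Csf1r), which should lack Klrg1, it was found after thinning in 0 of 16 mSTAR1302 cells, which allows up to 18.8%, and in 0 of 57 vehicle cells, which allows up to 5.26%. At these cell numbers the Klrg1 and Klre1 shares of mSTAR1302 CD8 cells lay below the limit of their library and cannot be told from background. The Klrg1 share of vehicle CD8 cells, 5.64%, lay just above the limit of 5.26%. Its interval (4.74 to 6.65%) held that limit, so it is not clearly told from background either. The median depths of these cells before thinning were 12158 UMIs for mSTAR1302 and 23022 UMIs for vehicle. In the same macrophage-gated cells Klrd1 was found in 0% of mSTAR1302 and 3.51% of vehicle cells, Klrk1 in 12.5% and 3.51% (2 cells each), Klrc1 in 0% and 1.75%, and Klrc2 and Klre1 in 0% of both, with the same limits as for Klrg1 where the count was 0. If 10% of the CD8 UMIs came from the free RNA, a share that was set and not measured, Klrg1 would be 2.61 CPM in mSTAR1302 and 12.5 CPM in vehicle CD8 cells. The log2 ratio would then be -2.27 in place of -2.78. For Klre1 the same subtraction left 29.96 CPM in mSTAR1302 and 94.6 CPM in vehicle CD8 cells. With droplets of 20 to 100 UMIs, which held 0 Klrg1 UMIs for mSTAR1302 and 16 for vehicle, the subtraction gave a Klrg1 log2 ratio of -1.37, a ratio of 0.387 in place of 0.145.

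CD8-gated cells with a Klrg1 UMI, 46 mSTAR1302 and 132 vehicle cells after thinning, were set against those without, 5564 and 2208 cells. Of 20 listed tissue regulatory T cell genes, 18 had at least 20 CPM in either class in mSTAR1302 and 19 in vehicle. Of these, 12 in mSTAR1302 and 13 in vehicle were at least 2-fold higher with Klrg1 and 0 were at least 2-fold lower, where 12% and 7.43% of all genes were higher and 6.54% and 3.74% lower. The median log2 ratio of the list was 1.26 in mSTAR1302 and 1.35 in vehicle, against 0.14 and 0.15 over all genes. Members below 1 were Lag3 in both libraries, at 0.944 in mSTAR1302 (0.590 to 1.43) and 0.616 in vehicle (0.479 to 0.781), and Areg (0.871) and Gata3 (0.961) in mSTAR1302. Foxp3, the lineage factor of regulatory T cells, was 21.3-fold higher in the Klrg1 cells of the mSTAR1302 library (12.3 to 34.9) and 7.40-fold higher in those of the vehicle library (5.79 to 9.41). Itgae, which encodes the integrin CD103, was 17.6-fold higher in mSTAR1302 (10.7 to 27.7) and 5.93-fold higher in vehicle (4.70 to 7.44). Cd8a, by contrast, was at a ratio of 0.840 in mSTAR1302 (0.638 to 1.09) and 0.403 in vehicle (0.334 to 0.482), so the vehicle Klrg1 cells of this gate held less of the CD8 transcript. The log2 ratio of Klrg1 between mSTAR1302 and vehicle was -2.66 without the CD8 cells that held a Foxp3 UMI, and -2.82 without these and the deepest 5% of cells, in place of -2.78. Whether droplets with several cells hold part of the Klrg1 reads was not tested, and no doublets were removed.

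In CD4 cells without a Foxp3 UMI the genes differed in direction, with Klrg1 far lower in mSTAR1302 cells and Klrd1, Klrk1 and Klrc1 higher. Klrg1 stood at 5.93 CPM (4.03 to 8.42) in mSTAR1302 cells and 96.8 CPM (87.7 to 106.5) in vehicle cells, 16.3-fold lower. Klrc1 stood at 36.2 CPM (31.2 to 41.7) in mSTAR1302 cells and 17.8 CPM (14.1 to 22.3) in vehicle cells, a ratio of 2.03 (1.55 to 2.68) that stayed past 2-fold in 11 of 17 alternative settings. Of the 6 members, 1 was at least 2-fold lower, where 5.35% of 5518 genes were, and 1 was at least 2-fold higher, where 0.906% were. The 4 members with at least 20 CPM were Klrg1, Klrd1, Klrk1 and Klrc1. The cells of this gate also differed in regulatory T cell genes between the libraries. Of 18 listed tissue regulatory T cell genes with at least 20 CPM, 5 were at least 2-fold lower with mSTAR1302 and 0 higher. Ikzf2 stood at 84.0 CPM in mSTAR1302 and 572 CPM in vehicle cells. The part of this difference in the receptor ratios of the gate was not tested.

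Klrd1 stood at 148 CPM (138 to 159) in mSTAR1302 and 96.8 CPM (87.7 to 106.5) in vehicle CD4 cells without Foxp3, a ratio of 1.53 (1.36 to 1.73). Klrk1 stood at 112 CPM (103 to 121) in mSTAR1302 and 72.0 CPM (64.2 to 80.5) in vehicle cells, a ratio of 1.56 (1.35 to 1.79). Klrc2 stood at 19.7 CPM in mSTAR1302 and 17.4 CPM in vehicle cells, and the interval of its ratio, 0.835 to 1.55, held 1. Klre1 was near the detection limit, with 9 UMIs in mSTAR1302 and 10 UMIs in vehicle cells. After thinning, a Klrd1 UMI was found in 26.1% of 690 mSTAR1302 and 15.4% of 545 vehicle cells, a difference of 10.7 points (6.04 to 15.2), and a Klrk1 UMI in 22.5% and 11.6%, a difference of 10.9 points (6.63 to 15.1). Klrc1 was found in 9.13% and 4.404%. In the same thinned cells Klrg1 was found in 1.88% of mSTAR1302 and 14.3% of vehicle cells.

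Free RNA of Klrd1 and Klrc1 was higher in the mSTAR1302 library, at 514 and 202 CPM in droplets with more than 100 and up to 300 UMIs, against 419 and 116 CPM in those of the vehicle library. An admixture of 10% of it, set against the level in CD4 cells without Foxp3, came to 34.7% of the Klrd1 level in mSTAR1302 and 43.3% in vehicle, and to 55.9% and 65.1% of the Klrc1 level. With that amount subtracted, Klrd1 was 107 CPM in mSTAR1302 and 61.0 CPM in vehicle cells, and Klrc1 17.7 CPM and 6.91 CPM.

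In CD4 cells with a Foxp3 UMI, Klrg1 was the receptor gene with the most cells behind it. It stood at 126.0 CPM (107 to 147) in mSTAR1302 cells and 304 CPM (295 to 313) in vehicle cells, 2.42-fold lower with a ratio of 0.414 (0.351 to 0.485). After thinning it was found in 22.4% of 134 mSTAR1302 cells (15.6 to 30.4%) and 46.2% of 1289 vehicle cells (43.5 to 49.0%), a difference of -23.8 points (-31.1 to -15.4). The unthinned shares were 38.4% and 65.2%. Klrg1 free RNA at 10% would make up 1.07% of the level in mSTAR1302 and 4.63% of that in vehicle cells.

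The other 5 genes were low in CD4 cells with Foxp3. Klrd1 had 36 UMIs in mSTAR1302 cells and 203 in vehicle cells, which gave 28.9 CPM and 14.1 CPM, a ratio of 2.05 (1.40 to 2.94). Klrc1 had 16.8 CPM in mSTAR1302 and 7.62 CPM in vehicle cells, a ratio of 2.21 (1.32 to 3.55). An admixture of 10% free RNA exceeded these levels, at 178% of the Klrd1 level in mSTAR1302 and 298% in vehicle, and after its subtraction Klrd1, Klrk1, Klrc1 and Klrc2 were at 0 CPM in both libraries. Klre1 had 0 UMIs in mSTAR1302 and 15 UMIs in vehicle cells. Its vehicle level of 1.04 CPM was below what 3 UMIs in the mSTAR1302 cells would give, 2.41 CPM, so no fold is given. By the fold rule 1 member was at least 2-fold lower, where 1.95% of 5732 genes were, and 2 were at least 2-fold higher (Klrd1 and Klrc1), where 0.576% were, and of these only Klrg1 and Klrd1 had at least 20 CPM. Klrd1 stayed past 2-fold in 11 and Klrc1 in 13 of the 15 alternatives that gave a value.

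**Figure D2:**
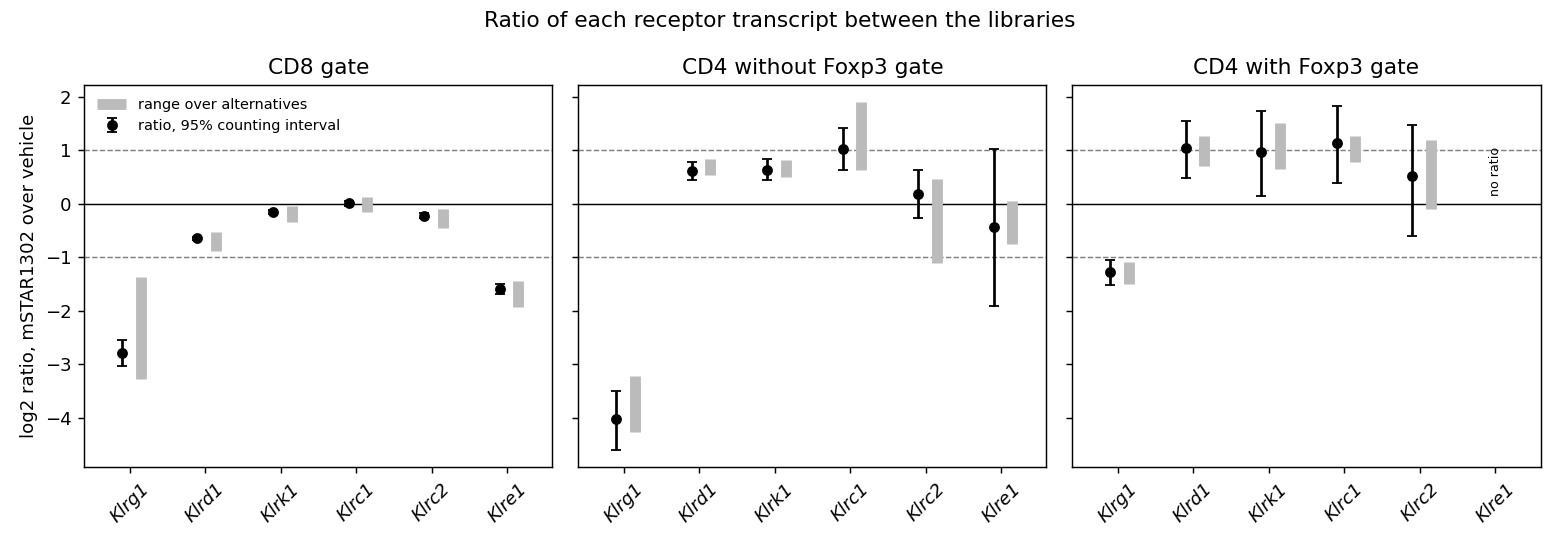
Log2 ratio of mSTAR1302 over vehicle for each receptor gene in the 3 gates, as black points with exact 95% counting intervals, beside grey bars for the range over alternative settings. Dashed lines mark a 2-fold difference. Klrg1 passed it downward in every gate and Klre1 in CD8 cells. Klrc1 passed it upward in the CD4 gates with and without Foxp3, and Klrd1 in CD4 cells with Foxp3.

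Ordered by level, Klrg1 was highest in vehicle CD4 cells with Foxp3 at 304 CPM, followed by mSTAR1302 CD4 cells with Foxp3 at 126.0 CPM, vehicle CD4 cells without Foxp3 at 96.8 CPM and vehicle CD8 cells at 25.4 CPM. mSTAR1302 CD4 cells without Foxp3 at 5.93 CPM and mSTAR1302 CD8 cells at 3.69 CPM came last, with counting intervals that overlapped. Klrd1 had the opposite order of gates, from 885 CPM in vehicle and 567 CPM in mSTAR1302 CD8 cells to 28.9 CPM in mSTAR1302 and 14.1 CPM in vehicle CD4 cells with Foxp3. T cells positive for Cd4 and for Cd8 transcripts, a class that may hold droplets with several cells, lay between, with Klrg1 at 24.1 CPM in 843 mSTAR1302 and 184 CPM in 1302 vehicle cells and Klrd1 at 378 CPM and 320.4 CPM. T cells with neither transcript held Klrd1 at 105.8 CPM in mSTAR1302 and 26.5 CPM in vehicle cells, and Klrg1 at 48.6 CPM and 153 CPM.

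NK cells can carry these genes, so their markers were read in the T cell gates. In CD8 cells the 11 NK markers summed to 66.4 CPM in mSTAR1302 and 218 CPM in vehicle cells, and of the defining markers Ncr1 stood at 0.123 and 0.242 CPM, Klrb1c at 0.143 and 0.380 CPM and Klra7 at 0.471 and 3.42 CPM. 3 of the 11 had at least 20 CPM (Tyrobp, Fcer1g and Styk1), and these 3 were lower with mSTAR1302. Below 20 CPM, Eomes was higher, at 16.7 CPM in mSTAR1302 and 5.67 CPM in vehicle cells, a ratio of 2.95 (2.49 to 3.51). Itga2 was also higher, at a ratio of 1.30 (1.03 to 1.67). Tyrobp and Fcer1g made up most of the vehicle NK sum in each gate, at 78.4 and 91.5 CPM in CD8 cells. Kept cells with an Ncr1 UMI and no Cd3 UMI numbered 0 in the mSTAR1302 library and 8 in the vehicle library, and those 8 held Klrd1 at 732 CPM and no Klrg1 UMI. Macrophage and monocyte markers, summed over 8 genes, were 71.2 CPM in mSTAR1302 and 725 CPM in vehicle CD8 cells, so macrophage transcripts moved with the library in the same direction as Klre1 and Klrg1, and their part in the result was not tested. Leaving out cells with an Ncr1, Klrb1c, Trdc or Fcer1g UMI gave log2 ratios of -2.88 for Klrg1 and -1.69 for Klre1, against -2.78 and -1.60 with them. In CD4 cells without Foxp3 the NK markers summed to 31.2 CPM in mSTAR1302 and 408 CPM in vehicle cells, Ncr1 had 0 UMIs in mSTAR1302 and 36 UMIs in vehicle cells (8.33 CPM), and the macrophage markers to 77.7 CPM and 891 CPM. In CD4 cells with Foxp3 the NK markers summed to 12.8 CPM in mSTAR1302 and 109.9 CPM in vehicle cells and the macrophage markers to 9.63 CPM and 259 CPM. Their part in the Klrg1 difference of these gates was not tested.

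Adaptors of these receptors differed from each other. Hcst (DAP10), the partner of NKG2D, stood at 656 CPM in mSTAR1302 and 489 CPM in vehicle CD8 cells, a ratio of 1.34 (1.31 to 1.37), and at 854 CPM and 477 CPM in CD4 cells without Foxp3. Tyrobp (DAP12), the adaptor of NKG2C and of one mouse form of NKG2D, stood at 12.1 CPM in mSTAR1302 and 78.4 CPM in vehicle CD8 cells, a ratio of 0.155 (0.141 to 0.169). Tyrobp is also a macrophage gene, and its free RNA was 49.5 CPM in mSTAR1302 and 282 CPM in vehicle droplets. Of 20 listed adaptor and signalling genes 18 had at least 20 CPM in CD8 cells, of which 2 were at least 2-fold lower (Tyrobp and Fcer1g), 0 higher and 16 between, where 4.73% and 1.04% of all genes were lower and higher, with a median log2 ratio of -0.09 against -0.14 over all genes tested. Among these 16 were Ptpn6 (SHP-1) and Ptpn11 (SHP-2), phosphatases that inhibitory lectin receptors recruit, at ratios of 0.704 and 0.556.

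Ligands of the receptors were also read in the T cells themselves, not in the tumour. H2-T23, which encodes Qa-1, the ligand of the CD94 receptors, stood at 348 CPM in mSTAR1302 and 483 CPM in vehicle CD8 cells, a ratio of 0.721 (0.705 to 0.737). The NKG2D ligands Ulbp1 (MULT1) and H60b stood at 24.2 and 43.4 CPM in mSTAR1302 and at 14.4 and 32.8 CPM in vehicle CD8 cells. Others were near the detection limit and did not share this direction. Raet1e had 6 UMIs in mSTAR1302 and 48 in vehicle cells, a ratio of 0.0741 (0.0259 to 0.173). Raet1d had 0 and 11 UMIs, and H60c 40 and 20 UMIs, a ratio of 1.19 (0.677 to 2.14). Cdh1 (E-cadherin), a ligand of KLRG1, stood at 11.8 CPM in mSTAR1302 and 7.95 CPM in vehicle CD8 cells. Of 16 listed ligand genes 12 were in the files, and Raet1a, Raet1b and Raet1c were among those that were not. Of these 12 genes 6 had at least 20 CPM, 0 of them past 2-fold, with a median log2 ratio of -0.14.

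Other genes of the NK gene complex were at low levels in CD8 cells. Of 28 listed genes in the files, 2 had at least 20 CPM, the activation marker Cd69 at a ratio of 1.47 and Clec2d at 0.799. Klri2, a pairing partner of Klre1, stood at 3.61 CPM (176 UMIs) in mSTAR1302 and 7.57 CPM (219 UMIs) in vehicle CD8 cells, a ratio of 0.477, and Klri1 had 20 and 22 UMIs. Klrc3, the gene between Klrk1 and Klrc2, stood at 8.91 CPM in mSTAR1302 and 10.0 CPM in vehicle CD8 cells, a ratio of 0.890. Klri2 was thus lower in the same library as Klre1, at a low level, but this was not particular to it. Other listed genes under 20 CPM had lower ratios, among them Klra3 (0.0803), Klra7 (0.138), Clec12a (0.160), Klrb1b (0.198) and Klra2 (0.290). Above 1 under 20 CPM were Clec2i (1.91), Klrb1f (1.33) and Clec1b (1.19, on 2 and 1 UMIs). Of 12146 genes with at least 1 CPM in CD8 cells, 13.9% were at least 2-fold lower. The interval of the Klri1 ratio held 1 (0.279 to 1.04).

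Genes that mark short-lived effector or memory CD8 cells stood on both sides of vehicle. Of 25 listed genes 22 had at least 20 CPM in CD8 cells, with 4 at least 2-fold lower and 3 at least 2-fold higher, where 4.73% and 1.04% of all genes were, and a median log2 ratio of -0.33 against -0.14 over all genes. The lower ones were Zeb2 (ratio 0.414), a transcription factor of terminal effector cells, Cx3cr1 (0.266), a chemokine receptor of such cells, and Ccr7 (0.236) and Bach2 (0.371), which are known in resting and memory cells. The higher ones were the granzymes Gzma (17.8) and Gzmb (3.82) and the surface protein Ly6c2 (3.69). In the same gate 5 of 16 tissue regulatory T cell genes with at least 20 CPM were at least 2-fold lower (Areg 0.210, Itgae 0.245, Ikzf2 0.330, Il1rl1 0.400 and Tnfrsf4 0.480) and 0 higher, against the same background, with a median log2 ratio of -0.55. Among CD4 cells without Foxp3, where 5.35% of all genes were at least 2-fold lower and 0.906% higher, 5 of 20 effector and memory genes with at least 20 CPM were at least 2-fold lower and 3 higher, and 5 of 18 tissue regulatory T cell genes were lower and 0 higher. Among CD4 cells with Foxp3, where 1.95% of all genes were lower and 0.576% higher, 1 of 18 effector and memory genes was lower and 3 were higher, and 0 of 19 tissue regulatory T cell genes passed 2-fold in either direction.

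Within single cells of the CD8 gate, detection of each pair of the 5 receptor genes other than Klrg1 had a lower phi in mSTAR1302 than in vehicle. All readings here are of cells thinned to 3000 UMIs, 5610 in mSTAR1302 and 2340 in vehicle, and phi is the correlation of detection between a pair of genes over the cells of 1 library, given as a description. For Klrd1 and Klrk1 phi was 0.0833 in mSTAR1302 and 0.348 in vehicle, as a Klrk1 UMI was found in 61.6% of Klrd1 cells and 52.7% of the others in mSTAR1302, and in 71.1% and 31.8% in vehicle. For the receptor pair Klrd1 and Klrc1 phi was 0.0863 in mSTAR1302 and 0.300 in vehicle. For the paralogs Klrc1 and Klrc2 it was 0.1702 in mSTAR1302 and 0.206 in vehicle. For Klre1 and Klrc2 it was nearly equal, at 0.0805 in mSTAR1302 and 0.0907 in vehicle. The largest phi that a pair can reach depends on the share of cells with each gene. These shares differed between the libraries, as for Klre1 at 6.31% in mSTAR1302 and 20.4% in vehicle, and their part in the phi values was not tested. Klrg1 had a negative phi with each of the other 5 genes in both libraries, from -0.0486 to -0.00734 in mSTAR1302 and from -0.214 to -0.0688 in vehicle. The gate was more mixed in vehicle, where 8.72% of these thinned cells held a Foxp3 UMI, against 1.60% in mSTAR1302. No receptor gene was found in 9.96% of the vehicle and 6.47% of the mSTAR1302 cells. The part of this mixture in the phi values was not tested.

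A Klrd1 UMI together with Klrc1 and not Klrc2 was found in 20.6% of thinned mSTAR1302 CD8 cells (19.5 to 21.7%) and 21.3% of vehicle cells (19.7 to 23.04%). Klrd1 with Klrc2 and not Klrc1 was found in 10.0% of mSTAR1302 and 13.4% of vehicle cells, and Klrd1 with both in 16.4% (15.4 to 17.4%) and 23.6% (21.9 to 25.4%). A Klrc1 or Klrc2 UMI without one of Klrd1 was found in 17.1% of mSTAR1302 and 8.08% of vehicle cells. At this depth a missing UMI does not show that a cell lacks the transcript. UMIs of all 6 genes were found in 0 of 5610 mSTAR1302 cells and 2 of 2340 vehicle cells.

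**Figure D3:**
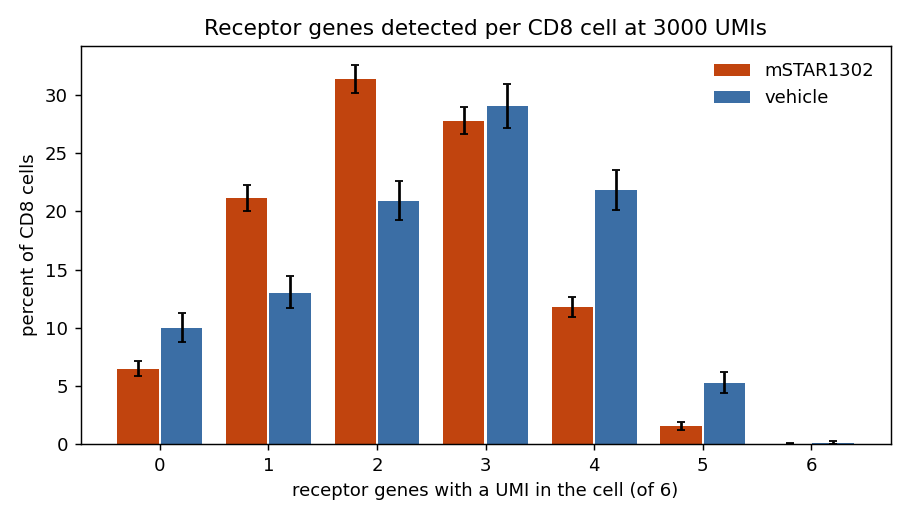
Percent of thinned CD8 cells (3000 UMIs) by how many of the 6 receptor genes had a UMI, with mSTAR1302 bars left of vehicle bars and exact 95% Clopper-Pearson intervals. The most common number was 2 in mSTAR1302 (31.3% of cells) and 3 in vehicle (29.0%), and 0 receptors were found in 6.47% of mSTAR1302 and 9.96% of vehicle cells.

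The receptor levels were also read by co-detected markers, again in thinned CD8 cells and within each library. All 5 genes other than Klrg1 were higher in cells with a Pdcd1 or a Cx3cr1 UMI than in cells without one in both libraries. Klre1 was higher in cells with a UMI of Pdcd1 (PD-1), 4.29-fold in mSTAR1302 (3.55 to 5.17) and 1.62-fold in vehicle (1.40 to 1.89). It was also higher in cells with a Cx3cr1 UMI, 4.66-fold in mSTAR1302 and 1.65-fold in vehicle. It was lower in cells with a UMI of the granzyme Gzma, at a ratio of 0.328 in mSTAR1302 (0.266 to 0.403) and 0.335 in vehicle (0.177 to 0.577), and with Gzmk, at 0.234 and 0.290. A Gzma UMI was found in 3083 of 5610 mSTAR1302 cells and 126 of 2340 vehicle cells. Gzma made up 935 CPM of the low-UMI droplets in mSTAR1302 and 17.7 CPM in vehicle, and was found in 17.6% and 0.365% of them. In macrophage-gated cells Gzma was found in 1 of 16 mSTAR1302 and 0 of 57 vehicle cells, and Cx3cr1, which macrophages also express, in 1 of 16 and 28 of 57. The part of free RNA in these classes was not tested.

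Klre1 was compared in cells with a Gzma UMI, where it stood at 14.2 CPM in mSTAR1302 and 34.4 CPM in vehicle cells, and in cells without one, where it stood at 43.1 CPM and 103 CPM. Klrd1 stood at 502 CPM in mSTAR1302 and 611 CPM in vehicle cells with a Gzma UMI, and at 640.3 CPM and 964 CPM in cells without one. Klrd1 was higher in Pdcd1 cells, 1.67-fold in mSTAR1302 (1.59 to 1.74) and 1.58-fold in vehicle (1.51 to 1.66), and in Cx3cr1 cells, 2.15-fold and 1.72-fold. It was lower in cells with Tcf7, a factor of naive and stem-like T cells, at a ratio of 0.695 in mSTAR1302 and 0.493 in vehicle.

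Klrk1 varied little by these markers, with ratios of 1.23 in mSTAR1302 and 1.16 in vehicle for Pdcd1, 0.928 and 0.944 for Gzma and 0.858 and 0.782 for Tcf7. Klrc1 followed Pdcd1 at 1.31 in mSTAR1302 and 1.38 in vehicle, and Klrc2 at 1.37 and 1.17. For Gzma, Klrc2 had a ratio of 0.971 in mSTAR1302 (0.902 to 1.04) and 1.52 in vehicle (1.25 to 1.83). Klrg1 was 20.7-fold higher in mSTAR1302 cells with an Itgae UMI and 10.8-fold higher in vehicle cells with one, while the other 5 genes had ratios below 1 in Itgae cells in both libraries, from 0.100 to 0.860 in mSTAR1302 and from 0.275 to 0.540 in vehicle. The interval of Klrk1 held 1 in mSTAR1302 (0.708 to 1.04).

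**Figure D4:**
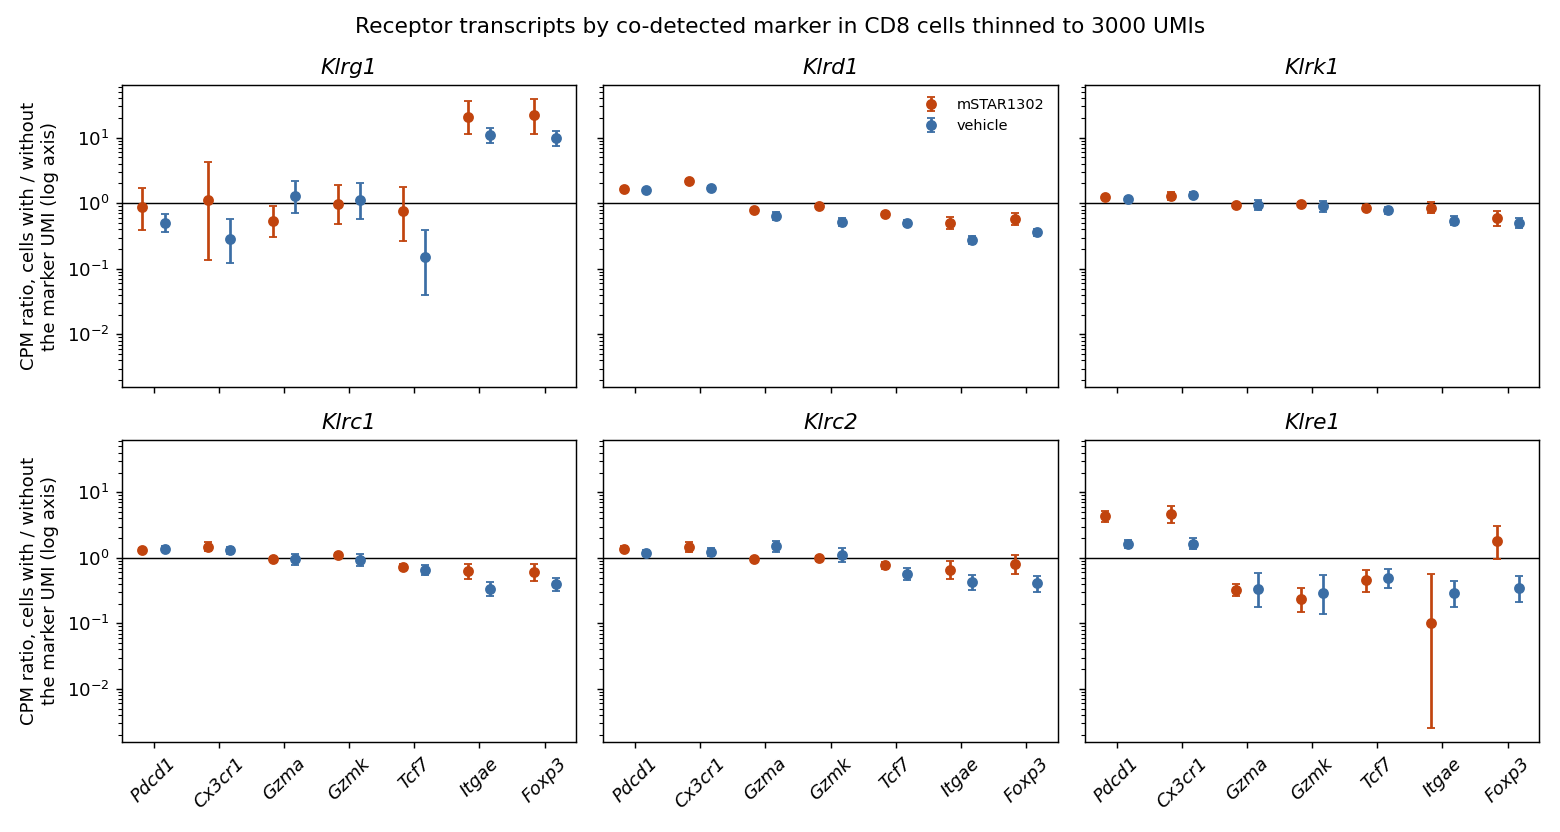
CPM ratio (log axis) of each receptor gene between thinned CD8 cells with and without a UMI of a marker, with mSTAR1302 points left of vehicle points and exact 95% conditional binomial intervals. Klre1 was above 1 with Pdcd1 and Cx3cr1 and below 1 with Gzma and Gzmk, and Klrg1 was far above 1 with Itgae and Foxp3.

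The genes most like each receptor in detection were ranked by the lower phi of both libraries over 7365 genes found in 2% to 98% of thinned CD8 cells. For Klre1 these were Nrgn (phi 0.268 in mSTAR1302 and 0.191 in vehicle), Lag3 (0.188 and 0.197) and Rgs16 (0.198 and 0.1697). For Klrd1 they were Nrgn (0.149 and 0.324), Gzme (0.112 and 0.151) and Lag3 (0.109 and 0.302). For Klrk1 they were Pdcd1, Lgals3 and Nrgn, at lower phi values of 0.0780, 0.0695 and 0.0669.

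For Klrc1 they were Lgals3 (0.105 in mSTAR1302 and 0.184 in vehicle), Lag3 (0.102 and 0.165) and Nrgn (0.0953 and 0.175), so Nrgn was among the 3 most alike genes of Klre1, Klrd1, Klrk1 and Klrc1. For Klrc2 they were Rgs16 (0.0928 and 0.139), Pdcd1 (0.0809 and 0.0818) and Il18rap (0.0750 and 0.140). Klrg1, itself in under 2% of mSTAR1302 cells, was most like Itgae (0.137 and 0.331), Ikzf2 (0.0788 and 0.286) and Fabp5 (0.0772 and 0.0990). Over the 6 sums of a gate and library, which share library and free RNA, the closest gene by Pearson r of log2(CPM + 1) was Ppp3cc for Klrd1 and Klrk1, Itga1 for Klrc1, Cemip2 for Klrc2, Exph5 for Klre1 and Traf7 for Klrg1, at r between 0.989 and 1.00 over 6 points.

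CD8 cells with a Trbv13-2 or Trbv13-3 UMI and no other Trbv UMI, the receptor chains that mSTAR1302 is made to bind, were set against CD8 cells with other Trbv UMIs only. The classes share a library and held 682 and 802 cells in mSTAR1302, and 73 and 503 cells in vehicle. In the mSTAR1302 library Klre1 stood at 18.1 CPM in Trbv13-2 or Trbv13-3 cells and 52.5 CPM in the others, a ratio of 0.345 (0.278 to 0.426). In the vehicle library it stood at 64.5 CPM in Trbv13-2 or Trbv13-3 cells and 99.1 CPM in the others, a ratio of 0.651 (0.496 to 0.841). Klre1 was thus lower in cells with these chains in both libraries.

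Klrd1 stood at 537 CPM in Trbv13-2 or Trbv13-3 cells and 702 CPM in the others in mSTAR1302, a ratio of 0.764 (0.732 to 0.798), and at 837 CPM and 980.0 CPM in vehicle, a ratio of 0.854 (0.794 to 0.918). Klrk1 was level between the classes, at ratios of 1.01 (0.953 to 1.06) in mSTAR1302 and 0.987 (0.890 to 1.09) in vehicle. Klrc1 was at ratios of 0.923 (0.867 to 0.982) in mSTAR1302 and 0.981 (0.864 to 1.11) in vehicle, and Klrc2 at 0.879 and 0.778. Klrg1 rested on few UMIs, 14 against 41 in mSTAR1302 and 48 against 106 in vehicle, with ratios of 0.445 (0.224 to 0.834) and 2.89 (2.01 to 4.10). Gzma was 2.30-fold higher in the Trbv13-2 or Trbv13-3 cells of the mSTAR1302 library, and at a ratio of 0.778 in those of the vehicle library with an interval that held 1 (0.585 to 1.02).

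Among vehicle CD4 cells without a Foxp3 UMI, those with a Klrg1 UMI carried regulatory T cell genes at higher levels. Of 20 listed tissue regulatory T cell genes, 19 had at least 20 CPM in 78 thinned cells with Klrg1 or in 467 without, and 14 of these were at least 2-fold higher with Klrg1, where 12.1% of 6172 genes were, and 0 at least 2-fold lower, where 6.93% were. The median log2 ratio was 1.44 over the list and 0.22 over all genes. Areg, which encodes the repair factor amphiregulin, was 7.01-fold higher (5.72 to 8.60), Itgae 4.93-fold (3.70 to 6.54) and Ikzf2, the factor Helios, 4.31-fold (3.79 to 4.89). Tcf7 was at a ratio of 0.142 (0.0566 to 0.296) and Cd40lg, a helper cell gene, at 0.232 (0.0838 to 0.516). A cell without a Foxp3 UMI may still hold Foxp3 transcripts at this depth. In mSTAR1302, with 13 such cells in which 1 UMI is worth 25.6 CPM, 8 of 17 genes were at least 2-fold higher, where 29.8% of 6321 genes were, and 0 lower, where 4.68% were. The median log2 ratio was 0.88 over the list and 0.35 over all genes. Areg was 8.83-fold higher (4.03 to 17.4) and Ikzf2 11.6-fold (7.71 to 17.03), while Rora was at 0.517 (0.257 to 0.928), Icos at 0.854, Batf at 0.902 and Il1r2 at 0.914.

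Within CD4 cells with a Foxp3 UMI the differences of the same list by Klrg1 stayed under 2-fold. In 30 mSTAR1302 cells with Klrg1 against 104 without, and in 596 vehicle cells with Klrg1 against 693 without, 0 of 19 genes with at least 20 CPM were past 2-fold in either library. In the background, 17.9% of genes in mSTAR1302 and 0.188% in vehicle were at least 2-fold higher with Klrg1, and 11.4% and 0.358% at least 2-fold lower. The vehicle count of 0 was thus near the share over all genes. The median log2 ratio of the list was 0.37 in mSTAR1302 and 0.16 in vehicle, against 0.13 and 0.01 over all genes. Of the 19 genes, 5 in mSTAR1302 and 2 in vehicle had a ratio below 1. The nearest was Lag3, at ratios of 1.996 (1.07 to 3.61) in mSTAR1302 and 1.98 (1.62 to 2.42) in vehicle. Areg was 1.60-fold higher in mSTAR1302 (1.04 to 2.41) and 1.498-fold higher in vehicle (1.37 to 1.63), Gzmb 1.48-fold and 1.41-fold, and Foxp3 itself was at 1.15 and 1.00. Tcf7 was at a ratio of 0.0831 in vehicle (0.0165 to 0.260), on 3 UMIs in the Klrg1 cells.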

How the data were processed

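The authors deposited raw UMI counts of every gene in every barcode for both libraries, unfiltered and not normalized. Cell Ranger made them. Its version is 4 per the file headers but 6.0.1 per the submitters' processing notes, which list Seurat, FastQC, MultiQC 1.9 and the mm10 genome as well. The sources used here do not give a release of the annotation. The matrices held 96486469 UMIs over 1728776 barcodes for mSTAR1302 and 110026997 UMIs over 1910622 barcodes for vehicle.

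Cells were filtered and gated by fixed UMI rules without clustering, and no doublets were called or removed. The gates used Python 3.11.15, NumPy 2.4.6, pandas 2.3.3 and SciPy 1.17.1, with figures from matplotlib 3.10.9. UMI counts were summed per gate and library and scaled to CPM, with exact Poisson intervals. Ratios had exact conditional binomial intervals and shares Clopper-Pearson intervals. All of these cover counting error only, and cells were not treated as replicates. Differences of shares had Newcombe intervals. A gene was called at 2-fold, and the background was every gene with at least 20 CPM in either library, where a 0 was set to 3 counts. Single cells were thinned to 3000 UMIs with a fixed seed. Free RNA was read from droplets with more than 100 and up to 300 UMIs, a range chosen after the data were seen, because the planned range of 20 to 100 UMIs held few barcodes. The scripts were tested on simulated data. The genes and lists were chosen with earlier results of these data known. Besides the members, the text names list genes past 2-fold in CD8 cells, adaptors and ligands, and the 3 genes most like each member. Members of the regulatory T cell list that go against its direction were named after their values were seen. Genes named outside that rule (Klra2, Klra3, Klra7, Klrb1b, Klrb1f, Clec1b, Clec2i, Clec12a, Eomes, Itga2, Ptpn6, Ptpn11, Cdh1, Cd69, Clec2d, Klri1, Klri2, Klrc3, and the genes given for cells with and without Klrg1) were chosen after their values were seen. Positions came from GENCODE M21 on GRCm38, the assembly of mm10, and promoters from RefSeq.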

Additional observations from a re-analysis of the deposited data

Results flagged for a closer look

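The mSTAR1302 to vehicle log2 ratio of Klrd1 was -0.64 in CD8 cells, against 0.61 in CD4 cells without Foxp3 and 1.04 in CD4 cells with Foxp3. That of Klrk1 was -0.15 in CD8 cells, against 0.64 in CD4 cells without Foxp3 and 0.98 in CD4 cells with Foxp3. Both genes were picked out because the sign of the log2 ratio was opposite in CD8 and CD4 cells. Klrc2 also changed sign, at -0.22 in CD8 cells, 0.18 in CD4 cells without Foxp3 and 0.52 in those with Foxp3. It was not picked out, and the interval of its ratio held 1 in both CD4 gates. For Klrk1 in CD8 cells the log2 ratio was near the background median of -0.14, and 2642 of 5473 genes had a lower one. Median-ratio scaling gave -0.0345 there, so Klrk1 did not stand apart from other genes in CD8 cells. In CD4 cells with Foxp3 these levels were low, at 28.9 CPM in mSTAR1302 and 14.1 CPM in vehicle cells for Klrd1 and 13.6 CPM and 6.93 CPM for Klrk1. There, 10% of the free RNA of droplets with more than 100 and up to 300 UMIs came to 178% and 298% of the Klrd1 level and to 121% and 147% of the Klrk1 level. The thinned share of cells with Klrk1 differed by 2.85 percentage points, with an interval that held 0 (-0.0941 to 7.90). The difference between the gates was not tested, since each group is 1 library.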

How the results depend on the processing

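No paired analysis was possible because each group is 1 library and the labels give no replicate numbers. Under 17 alternatives, Klrg1 stayed at least 2-fold lower with mSTAR1302 in all 3 gates, with log2 ratios from -3.27 to -1.37 in CD8 cells, from -4.26 to -3.22 in CD4 cells without Foxp3 and from -1.51 to -1.09 in CD4 cells with Foxp3. The value nearest to 0 in CD8 cells, -1.37, came from subtracting 10% free RNA in the proportions of droplets with 20 to 100 UMIs. Klre1 in CD8 cells ranged from -1.92 to -1.45. Klrc1 in CD8 cells ranged from -0.16 to 0.13 and has no settled direction. Median-ratio scaling moved all log2 ratios by 0.12 in CD8 cells and in CD4 cells with Foxp3, and by 0.16 in CD4 cells without Foxp3. In CD4 cells without Foxp3, 2 members were at least 2-fold lower (Klrg1 and Klrc2) after that subtraction, against 1 in the report. In the same gate 0 were at least 2-fold higher after thinning to 3000 UMIs, with pseudocounts of 1 or 5 CPM, without the Cd3 rule, with at least 2 lineage UMIs or with at least 2000 UMIs per cell, against 1. In CD4 cells with Foxp3, a pseudocount of 1 CPM gave 2 lower (Klrg1 and Klre1), against 1, and 1 higher (Klrc1), against 2. There, 1 was higher (Klrc1) with at least 2 Foxp3 UMIs, and 0 with a pseudocount of 5 CPM or after either subtraction of free RNA. In that gate 6 other settings gave 3 higher (Klrd1, Klrk1 and Klrc1), among them median-ratio scaling and a mitochondrial limit of 5%, and the pair past 2-fold was Klrd1 and Klrk1 after thinning and Klrc1 and Klrc2 with cells weighted equally. Klrk1 was past 2-fold there in 7 of 15 alternatives, up to 2.86-fold, and Klrc2 in 1, at 2.30-fold. The cause was not tested.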
